A study of Homo sapiens with 6 samples.

Results

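The transcripts described here came from 9 protocadherin beta genes (PCDHB2, PCDHB8, PCDHB9, PCDHB11, PCDHB12, PCDHB13, PCDHB14, PCDHB15 and PCDHB16) in AsPC-1, an established human pancreatic cancer cell line. They were chosen from a table of 753 genes as the rows with a PCDHB symbol and at least 1 FPKM in at least 3 of 6 libraries. FPKM is a fragment count divided by the length of the gene and the depth of the library. The table held 12 PCDHB rows, and PCDHB3, PCDHB7 and PCDHB10 fell below the threshold. GENCODE release 29 annotates 16 protein-coding PCDHB genes and 3 pseudogenes, and the other 4 protein-coding genes (PCDHB1, PCDHB4, PCDHB5 and PCDHB6) and the pseudogenes were not analysed here.

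Polyadenylated RNA was sequenced in 3 control samples, labelled TMPRSS4 NC and given a control lentivirus, and in 3 samples given a lentivirus that expresses a hairpin directed at TMPRSS4 (shTMPRSS4), which encodes a serine protease of the cell membrane. Both groups therefore carried a lentivirus, and the labels name no time point. Nothing in them says whether replicates came from separate cultures, so any p-value measures only the spread between these samples. TMPRSS4 itself was not analysed here, so the knockdown was not checked. The title of the series concerns proliferation, apoptosis and ERK1/2 signalling.

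The authors had selected the table on the same comparison. In the authors' deposited table every row differed by a log2 fold change of 1 or more in either direction, at a false discovery rate no higher than 0.0490, with 555 rows higher and 198 lower in shTMPRSS4. A difference between the groups was therefore a condition of entry for the protocadherins, and their fold changes are given as a description with no test. The depth recovered from the table was between 30200000 and 57200000 reads in the control libraries and between 46800000 and 53300000 in the shTMPRSS4 libraries. In the labels, control replicate 3, the shallowest library, carries the lane code L3 and the other 5 carry L4, so this lane held no shTMPRSS4 library.

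Clustered protocadherins are cadherin-like membrane proteins encoded side by side in alpha, beta and gamma clusters on the long arm of chromosome 5. Each beta gene is a single coding exon with its own promoter and encodes a whole protein with extracellular cadherin repeats, a membrane span and a short cytoplasmic tail. Matching protocadherins on touching membranes bind each other, and in neurons, where the family is best known, each cell uses only some promoters, which gives its surface an identity. The promoters are known for a conserved sequence element that the insulator protein CTCF binds, and for DNA methylation that silences them.

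The sequences around this element are shown because they let the promoters of these paralogous genes be compared letter by letter. The genes were chosen by a family symbol, so that they share sequence is not a result. RefSeq promoter windows (GRCh38.p14, from 250 bases before to 50 bases after the annotated start) were found for 8 of the 9 genes, all except PCDHB11. All 8 held the letters GGTGGCGCT, searched on both strands, on the strand of the gene. The first base of the run lay between 2 and 76 bases before the annotated start. In the following 29-base windows, written 5′ to 3′, the capitals mark that run.
PCDHB2: agagacgcggGGTGGCGCTgcagccttag
PCDHB8: gaggacccgtGGTGGCGCTgcaggataag
PCDHB16: gagaacgcgtGGTGGCGCTgcaggttaag
PCDHB9: gaagccacaaGGTGGCGCTgcagactgaa
PCDHB12: ggagacgcgtGGTGGCGCTgcaggataat
PCDHB13: gaggacgcgtGGTGGCGCTgcaggataag
PCDHB14: ggagacacatGGTGGCGCTacaggataag
PCDHB15: gacaacgcatGGTGGCGCTgcaggctaag

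The run was present in 13 of 14 PCDHB promoters, whether or not the gene passed the FPKM threshold, in none of 25 gamma and none of 13 alpha promoters, and in 176 of 35116 promoters in all, which is 0.501%. PCDHB1 was the beta promoter without it. Only these exact letters were searched, so their absence does not show that an alpha, gamma or other promoter lacks the conserved element. Extended by the next 4 letters most frequent in these promoters, the run became GGTGGCGCTGCAG. These 13 letters were present in 7 of the 8 promoters, in 10 of the 14 PCDHB promoters and in 0.0427% of all promoters. Counted from 1 at the 5′ end of the 13 letters, PCDHB14 carried the substitution G10A. Among the genes below the threshold, PCDHB3 carried C11T and A12T and PCDHB7 carried A12T, while PCDHB10 matched all 13 letters. A match is a description of the letters and not evidence of binding.

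Longer stretches are given for the gene of highest mean FPKM and smallest fold change (PCDHB2), the gene of largest fold change (PCDHB12), and PCDHB15, the highest gene when the longest transcript sets the length. They run from 250 bases before the RefSeq start to the base before the GENCODE gene start, on the plus strand of GRCh38.p14, at chr5:141094365-141094577, chr5:141208469-141208696 and chr5:141245145-141245348. The capitals mark the same run of letters.
PCDHB2: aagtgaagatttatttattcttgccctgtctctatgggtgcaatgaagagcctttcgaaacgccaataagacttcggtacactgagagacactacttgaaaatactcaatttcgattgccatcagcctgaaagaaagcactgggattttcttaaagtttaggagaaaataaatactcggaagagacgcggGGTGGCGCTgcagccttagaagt
PCDHB12: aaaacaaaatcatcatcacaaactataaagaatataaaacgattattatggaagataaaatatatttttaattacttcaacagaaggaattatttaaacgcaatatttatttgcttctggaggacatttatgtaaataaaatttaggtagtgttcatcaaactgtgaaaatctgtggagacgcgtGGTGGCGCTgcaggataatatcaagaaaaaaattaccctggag
PCDHB15: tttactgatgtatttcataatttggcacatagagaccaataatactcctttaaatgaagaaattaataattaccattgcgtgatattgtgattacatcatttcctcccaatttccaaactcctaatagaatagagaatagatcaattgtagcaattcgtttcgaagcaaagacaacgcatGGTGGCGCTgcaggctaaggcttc

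Across the 8 windows the GC content was between 33.3% and 46.3%, with a median of 42.5%, against a median of 58.7% over all promoters. They held between 5 and 10 CpG dinucleotides, with a median of 8.5 against 14 over all promoters.

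All 9 genes lie on the plus strand of chromosome 5 (GRCh38 coordinates from GENCODE release 29, which need not be the authors' annotation). PCDHB2 occupies 141094578 to 141098703 and lies apart from the rest, since its start is 83.2 kb before that of PCDHB8. The other 8 genes, from PCDHB8 at 141177790 to the end of PCDHB15 at 141249365, fill 71576 bp. Between them, in order, lie PCDHB16 (141181399 to 141186399), PCDHB9 (141187127 to 141191541), PCDHB11 (141199582 to 141203779), PCDHB12 (141208697 to 141212571), PCDHB13 (141213919 to 141218979) and PCDHB14 (141222932 to 141227759). PCDHB10, below the threshold, sits between PCDHB9 and PCDHB11. The coding exons are alike in size, with 2328 to 2403 coding bases before the stop codon in the 12 listed genes.

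The coding sequences are also close enough that reads could be shared. Over the 36 pairs of the 9 genes, identity was between 77.3% and 93.9%, with a median of 79.9%. The closest pair was PCDHB8 and PCDHB13 at 93.9%, and PCDHB11 and PCDHB12 were 91.3% identical. PCDHB9 was 92.8% identical to PCDHB10. Of all 31-base stretches in the annotated transcripts, the share also present at another locus was between 15.4% for PCDHB15 and 56.1% for PCDHB8. For PCDHB8, 43.3% of its stretches were in PCDHB13, and 23.3% of those of PCDHB13 were in PCDHB8. For PCDHB9, 22.9% were in PCDHB10. How the authors' counting placed reads that match several genes is not given in the sources used here, so the split between such neighbours is uncertain. Several genes also overlap annotated exons of other transcripts, which covered up to 16.3% of the exonic bases on the opposite strand (PCDHB16) and 9.43% on the same strand (PCDHB15). No strand-marking step is described, so these could not be separated.

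PCDHB transcripts were low in control cells and higher in every shTMPRSS4 library. Over the 9 genes, single control values were between 0.18 and 3.49 FPKM and single shTMPRSS4 values between 1.10 and 11.24 FPKM. In 9 of 9 genes the lowest shTMPRSS4 library was above the highest control library, at the depth recovered from the table. The same held for 72.8% of all 753 rows, and groups that did not overlap in either direction made 97.7%. All 9 were higher in the authors' deposited table, as were 73.7% of its rows. The quasi-likelihood test of edgeR called all 9 higher, as it did 73.3% of 705 rows tested, with 99.1% called in either direction. For PCDHB9, PCDHB11 and PCDHB12, whose control libraries were all below 1 FPKM, the threshold itself required separate groups. Since the table was selected on this contrast, nothing is read from these counts. The direction rests on that depth. When the libraries were scaled on the listed rows alone, by TMM or by DESeq2 size factors, PCDHB2 and PCDHB15 turned to slightly lower in shTMPRSS4 and the other 7 remained higher. Such scaling centres a table selected for change, and moved the median over all rows tested by −1.18 and −1.16. Rows with a log2 fold change smaller than about this shift turn by construction. Here and below, a turn therefore shows dependence on the scaling and is not separate evidence on direction. In these bulk samples, more cells with a transcript and more RNA per cell cannot be told apart.

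**Figure D1:**
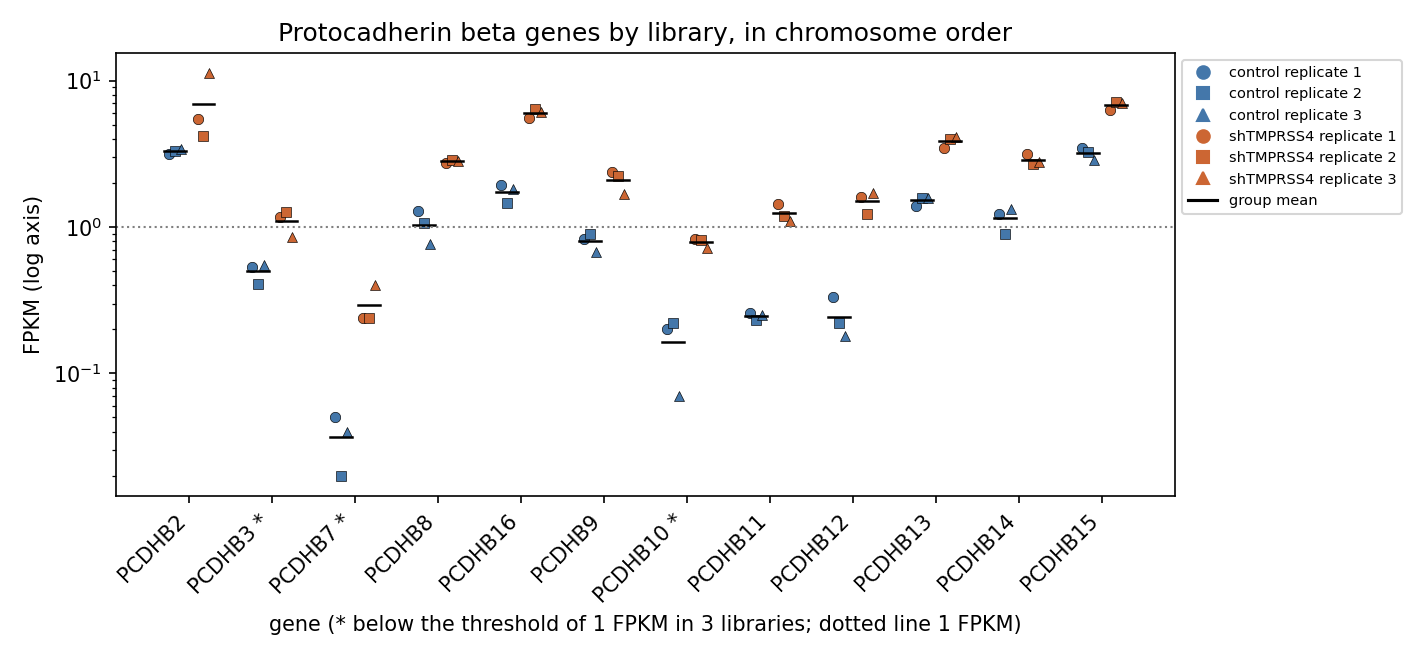
FPKM (log axis) of the 12 listed PCDHB genes in chromosome order, with 1 point per library, blue for the 3 control and orange for the 3 shTMPRSS4 libraries, and a bar at each group mean. At the recovered depth the orange points lie above the blue points for every gene, and shTMPRSS4 replicate 3 of PCDHB2 stands at 11.24 FPKM. Scaling on the listed rows by TMM or DESeq2 size factors, which centres a table selected for change, turns PCDHB2, PCDHB15 and PCDHB3.

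PCDHB2, PCDHB15 and PCDHB16 were the most abundant by FPKM, with group means of at least 6.003 FPKM in shTMPRSS4. All encode single-exon homophilic adhesion receptors, as do the genes that follow. PCDHB15 read 3.49, 3.24 and 2.86 FPKM in control replicates 1, 2 and 3, and 6.30, 7.12 and 7.07 FPKM in shTMPRSS4. Its 3 shTMPRSS4 libraries were close together and well above the controls. Its mean went from 3.20 ± 0.317 to 6.83 ± 0.460 FPKM (SD, n = 3 per group), a log2 fold change of 1.10 ± 0.10 (SE), which was −0.093 under TMM and −0.074 under DESeq2 size factors.

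PCDHB16 had the larger fold change, with a wider relative spread in control than PCDHB15. It read 1.93, 1.46 and 1.82 FPKM in control, and 5.57, 6.35 and 6.09 FPKM in shTMPRSS4. The lowest shTMPRSS4 library was far above the highest control. The means were 1.74 ± 0.246 and 6.003 ± 0.397 FPKM (SD, n = 3), a log2 fold change of 1.80 ± 0.13 (SE) or 3.47-fold. Its difference of means, 4.27 FPKM, was the largest among the 9 genes.

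PCDHB2 differed from the others in its replicates. It read 3.16, 3.31 and 3.42 FPKM in control, and 5.45, 4.19 and 11.24 FPKM in shTMPRSS4. Control libraries were nearly equal, while shTMPRSS4 replicate 3 was 2.33 times the mean of the other two. The coefficient of variation in shTMPRSS4 was 54.0%, and in the other 8 genes it was under 20%. The means were 3.30 ± 0.131 and 6.96 ± 3.76 FPKM (SD, n = 3), a log2 fold change of 0.95 ± 0.43 (SE), which was −0.24 under TMM and −0.22 under DESeq2 size factors. Without shTMPRSS4 replicate 3 the log2 fold change was 0.54 and the ratio of mean FPKM was 1.46, against 2.11 with it. In the authors' deposited table PCDHB2 had a log2 fold change of 1.08 and a false discovery rate of 0.00569, the highest rate among the 9 genes.

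PCDHB13 and PCDHB8, the most alike in sequence, stood at intermediate levels. PCDHB13 read 1.40, 1.58 and 1.57 FPKM in control and 3.47, 4.01 and 4.09 FPKM in shTMPRSS4. PCDHB8 read 1.28, 1.06 and 0.77 FPKM in control and 2.74, 2.87 and 2.82 FPKM in shTMPRSS4. Control replicate 3 was the lowest library of PCDHB8 but not of PCDHB13, and the shTMPRSS4 libraries of PCDHB8 were nearly equal. The log2 fold changes were 1.34 ± 0.09 (SE, n = 3 per group) for PCDHB13 and 1.46 ± 0.21 for PCDHB8, or 2.54-fold and 2.76-fold.

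PCDHB14 and PCDHB9 had control levels near 1 FPKM. PCDHB14 read 1.23, 0.90 and 1.32 FPKM in control and 3.15, 2.71 and 2.80 FPKM in shTMPRSS4. PCDHB9 read 0.83, 0.90 and 0.68 FPKM in control and 2.39, 2.24 and 1.67 FPKM in shTMPRSS4. The groups did not overlap for either gene, which the threshold required of PCDHB9, since its control libraries were all below 1 FPKM. For PCDHB9, shTMPRSS4 replicate 3 was the lowest of its group. The log2 fold changes were 1.34 ± 0.18 (SE, n = 3 per group) for PCDHB14 and 1.38 ± 0.20 for PCDHB9. Together with PCDHB8, PCDHB13 and PCDHB15 they made 5 genes with a change between 2-fold and 3-fold at the recovered depth. Under TMM none of the 5 reached 2-fold, with log2 fold changes of 0.27 for PCDHB8, 0.19 for PCDHB9, 0.15 for PCDHB13 and for PCDHB14, and −0.093 for PCDHB15.

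PCDHB11 and PCDHB12, adjacent on the chromosome and 91.3% identical, were lowest in control and had the largest fold changes of the 9 on the scale of depth-scaled counts. PCDHB11 read 0.26, 0.23 and 0.25 FPKM in control and 1.43, 1.18 and 1.10 FPKM in shTMPRSS4. PCDHB12 read 0.33, 0.22 and 0.18 FPKM in control and 1.59, 1.23 and 1.71 FPKM in shTMPRSS4. In both genes all control libraries lay far below 1 FPKM. Such a gene passes the threshold only with all 3 shTMPRSS4 libraries at or above 1 FPKM, so this separation was fixed by the rule. The log2 fold changes were 2.32 ± 0.13 (SE, n = 3 per group) for PCDHB11 and 2.64 ± 0.30 for PCDHB12, or 4.98-fold and 6.24-fold. They rested on 95 and 86 counts summed over the 3 control libraries, against 578 and 597 in shTMPRSS4. The ranking depends on the scale at these low levels. On the log2(FPKM + 1) scale PCDHB16 had the largest difference (1.36), PCDHB12 followed (1.01), and PCDHB11 (0.84) was below PCDHB13, PCDHB8, PCDHB15 and PCDHB14.

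The threshold ran between these genes and PCDHB3. PCDHB9, PCDHB11 and PCDHB12 entered with exactly 3 libraries at or above 1 FPKM, all of them shTMPRSS4, and 4 genes (PCDHB2, PCDHB13, PCDHB15 and PCDHB16) passed in all 6. Just outside, PCDHB3 had 2 such libraries, with 0.53, 0.41 and 0.55 FPKM in control and 1.17, 1.27 and 0.86 FPKM in shTMPRSS4. PCDHB10 read 0.20, 0.22 and 0.07 FPKM in control and 0.83, 0.81 and 0.72 FPKM in shTMPRSS4. PCDHB7 read 0.05, 0.02 and 0.04 FPKM in control and 0.24, 0.24 and 0.40 FPKM in shTMPRSS4. These genes also showed separate groups at the recovered depth, with log2 fold changes of 1.14 ± 0.21 (SE, n = 3 per group) for PCDHB3, 2.39 ± 0.52 for PCDHB10 and 3.01 ± 0.38 for PCDHB7, and PCDHB3 turned under TMM and DESeq2 size factors. The controls of PCDHB7 held only 17 counts in all.

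**Figure D2:**
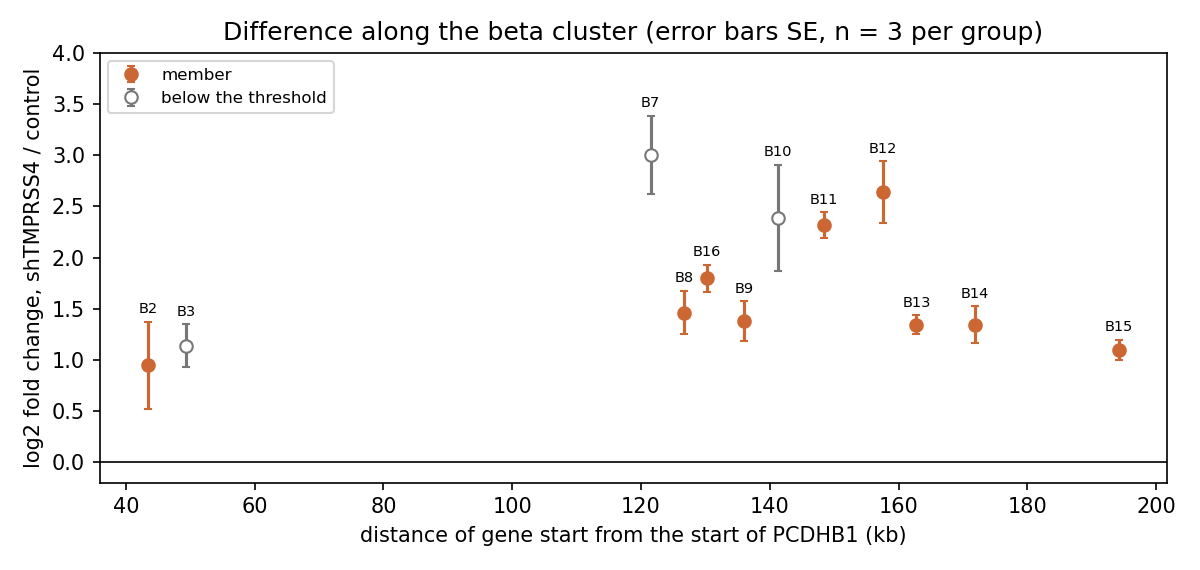
Log2 fold change (shTMPRSS4 minus control, error bars SE over 3 against 3 libraries) of the listed PCDHB genes (B2 stands for PCDHB2, filled points at or above the threshold, open points below it) against the distance of each gene start from the start of PCDHB1 in kb. PCDHB11 (2.32) and PCDHB12 (2.64) stand above the other genes at or above 1 FPKM, and PCDHB2 (0.95, with the widest error bar of these) and PCDHB15 (1.10) at the 2 ends are lowest, both turning under TMM or DESeq2 size factors.

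Along the chromosome the fold change was not even. PCDHB2 and PCDHB15, the first and the last of the 9 in order, had the smallest log2 fold changes, 0.95 and 1.10, both of which turned under TMM and DESeq2 size factors. On the log2(FPKM + 1) scale this order did not hold, since PCDHB9 (0.78) was lowest, PCDHB2 (0.79) was next, and PCDHB11 (0.84) and PCDHB14 (0.86) were below PCDHB15 (0.90). Between PCDHB2 and PCDHB15, PCDHB16 (1.80) lay between PCDHB8 (1.46) and PCDHB9 (1.38), and PCDHB12 (2.64) lay between PCDHB11 (2.32) and PCDHB13 (1.34). Among the listed genes below the threshold, PCDHB10 (2.39) lay just before PCDHB11, PCDHB7 (3.01) just before PCDHB8 and PCDHB3 (1.14) just after PCDHB2. The median log2 fold change over the 9 genes was 1.38, against 1.29 over the 705 rows tested and 1.56 over the 518 of those that were higher. Because the control mean is the denominator of the fold and the rows were selected on that fold, rows of low control level have larger folds by construction, and the level is given beside the medians. Among higher rows the median was 1.28 for 248 rows with a control mean of at least 0.5 FPKM and 2.05 for 270 rows below it. The 7 protocadherins on the upper side of that level had a median of 1.34, and PCDHB11 and PCDHB12 on the lower side, which entered only through their shTMPRSS4 libraries, had 2.48.

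The spread between replicates was set beside that of other rows of the same level. The median SD of log2 values was 0.20 in control and 0.13 in shTMPRSS4, against 0.28 and 0.16 for 262 rows in the same range of mean FPKM. The highest in shTMPRSS4 was 0.74, for PCDHB2, above the 95th percentile of those rows, which was 0.53. A highest value of 9 and a percentile of 262 are unlike measures, so PCDHB2 is not shown to be exceptional by them.

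Summed over the 9 genes, control replicates 1, 2 and 3 held 13.91, 12.90 and 12.87 FPKM, and shTMPRSS4 replicates held 32.09, 31.90 and 38.59 FPKM. The highest sum was that of shTMPRSS4 replicate 3, the library in which PCDHB2 stood apart. The means were 13.2 ± 0.592 and 34.2 ± 3.81 FPKM (SD, n = 3), a ratio of 2.59. All rows were selected on this contrast, and PCDHB9, PCDHB11 and PCDHB12 entered the sum only through their shTMPRSS4 libraries. The ratio is therefore a description, and it rests on the depth behind the deposited FPKM. In CPM of the recovered depth, the 9 genes took 37.3, 34.4 and 34.8 in control and 90.2, 91.8 and 102 in shTMPRSS4.

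The share of each gene in this sum restates its fold change against that of the others, and is given as a description of the mix. PCDHB16 held 13.1% ± 1.56 of the sum in control and 17.7% ± 2.08 in shTMPRSS4 (SD, n = 3). PCDHB11 went from 1.86% ± 0.0799 to 3.67% ± 0.803 and PCDHB12 from 1.83% ± 0.498 to 4.41% ± 0.550. The groups did not overlap for these 3 genes. For PCDHB11 and PCDHB12, which entered only through their shTMPRSS4 libraries, the threshold favoured a larger share there. No such share was computed for other rows, so nothing is read from this count. The share of PCDHB15 was 24.1% ± 1.66 in control and 20.1% ± 2.04 in shTMPRSS4, with overlapping groups. That of PCDHB2 was 25.0% ± 2.01 in control and read 16.98%, 13.1% and 29.1% in the shTMPRSS4 libraries. PCDHB8, PCDHB9, PCDHB13 and PCDHB14 also overlapped. Since a share depends on all 9 genes, the shares are not independent of each other.

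**Figure D3:**
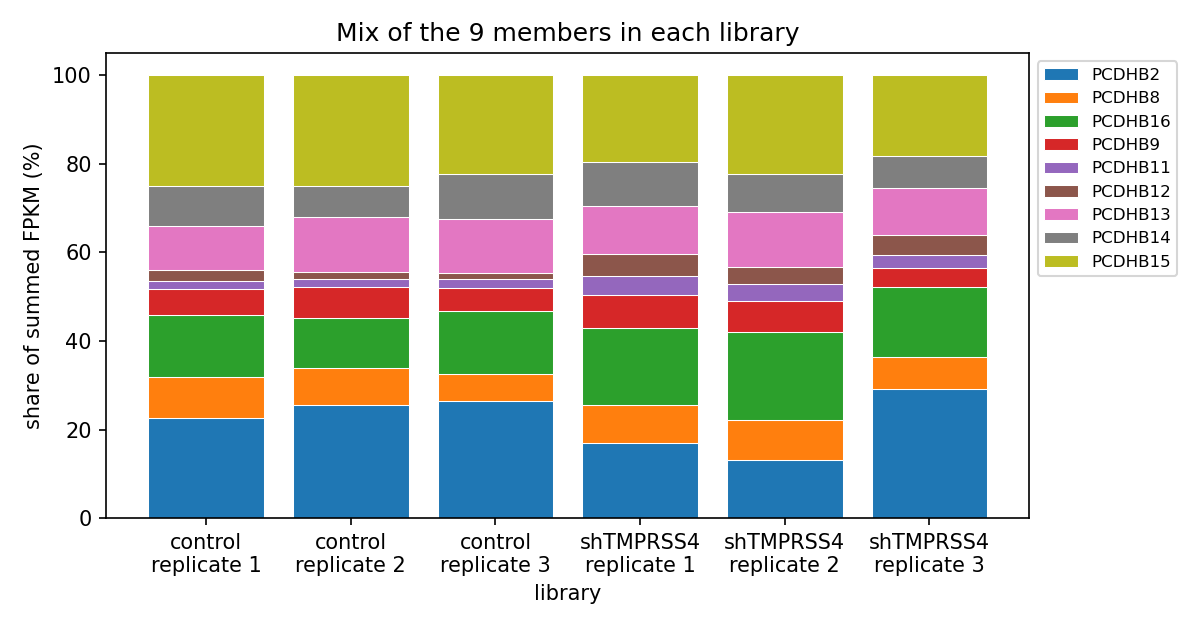
Share of the summed FPKM of the 9 genes held by each gene (percent), as 1 stacked bar per library with a colour for each gene in chromosome order. PCDHB16, PCDHB11 and PCDHB12 hold a larger share in all 3 shTMPRSS4 libraries than in any control library, and PCDHB2 is spread from 13.1% to 29.1% in shTMPRSS4. PCDHB11 and PCDHB12 entered only through their shTMPRSS4 libraries, which favours a larger share there.

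The order of the genes by level depended on the length behind the FPKM. The length implied by count, FPKM and depth was within 2% of the mean length of the annotated transcripts for 8 of the 9 genes, the exception being PCDHB9. Over the 159 genes used for depth this held for only 37 (23.3%), and the longest transcript was within 2% for 29 (18.2%). The authors' annotation may differ from GENCODE release 29, so the rule behind the deposited FPKM is not settled. For PCDHB2 this implied length was 1520 bases, while its longest transcript has 4126 bases, a ratio of 2.71. In the deposited FPKM the control order was PCDHB2, PCDHB15, PCDHB16, PCDHB13, PCDHB14, PCDHB8, PCDHB9, PCDHB11 and PCDHB12. In that order PCDHB2 and PCDHB15 overlapped, as did PCDHB16 and PCDHB13, PCDHB14 and PCDHB8, PCDHB8 and PCDHB9, and PCDHB11 and PCDHB12. PCDHB15 was above PCDHB16, PCDHB13 above PCDHB14, and PCDHB9 above PCDHB11 without overlap.

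Scaled to the longest annotated transcript, an alternative chosen after seeing the data, PCDHB15 was highest in control at 1.83 ± 0.181 FPKM (SD, n = 3), followed by PCDHB13 at 1.52 ± 0.101 and PCDHB2 at 1.21 ± 0.0481. These neighbours did not overlap. On this scale PCDHB16 was at 1.02 ± 0.145 FPKM, PCDHB8 at 1.04 ± 0.256 and PCDHB14 at 0.857 ± 0.165, all overlapping their neighbours within this group. PCDHB9 followed at 0.458 ± 0.0641, PCDHB11 at 0.181 ± 0.0112 and PCDHB12 at 0.167 ± 0.0532. In shTMPRSS4 the first places on this scale went to PCDHB15 (3.90 ± 0.263), PCDHB13 (3.85 ± 0.337) and PCDHB16 (3.54 ± 0.234), and PCDHB2 stood in the fifth place at 2.56 ± 1.39 FPKM. Of these, PCDHB15 overlapped PCDHB13 and PCDHB13 overlapped PCDHB16. PCDHB2 overlapped both its neighbours, PCDHB8 and PCDHB14, so its place is not resolved. The fold of a single gene is the same on both scales. On the longest-transcript scale the share of PCDHB15 was 22.0% in control and 17.8% in shTMPRSS4, and its groups no longer overlapped.

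**Figure D4:**
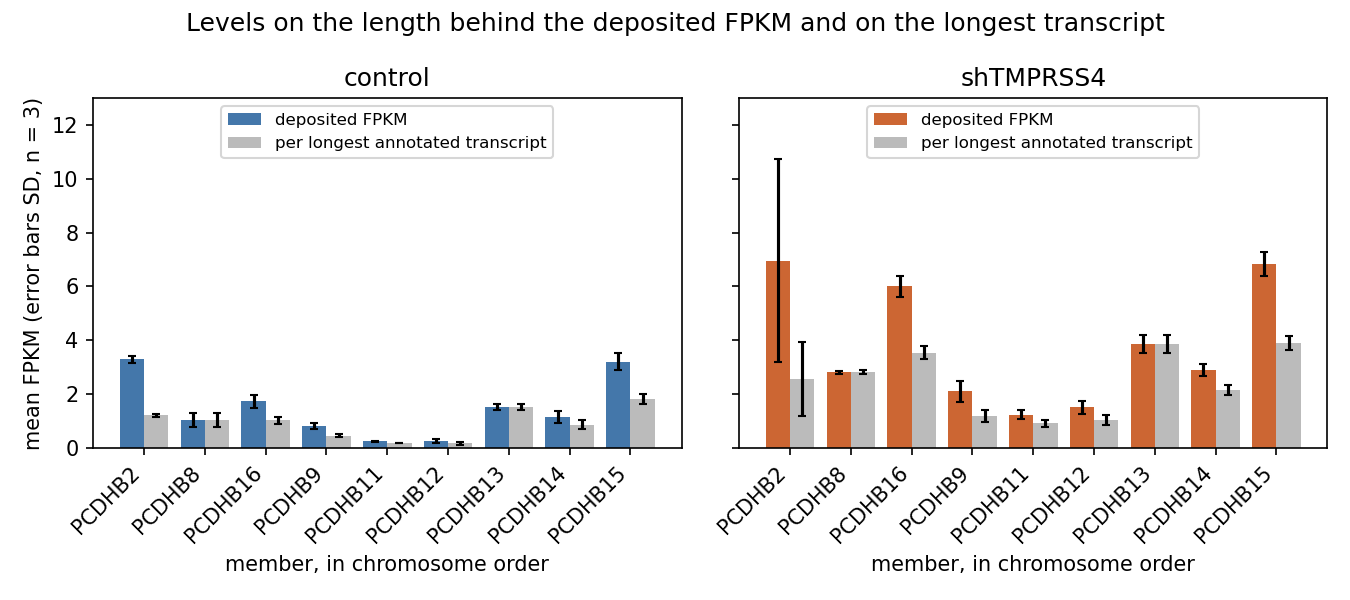
Group mean level of the 9 genes (FPKM, error bars SD, n = 3) as deposited (coloured bars) and scaled to the longest annotated transcript (grey bars), for control on the left and shTMPRSS4 on the right. PCDHB2 moves from the first place to the third in control and to the fifth in shTMPRSS4, while the levels of PCDHB8 and PCDHB13, which have 1 annotated transcript each, are the same on both scales and their places move up.

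The neighbouring clusters were listed in part. Of 22 gamma genes, which share constant exons and differ in their first exon, 9 were in the table and 9 were called higher by the quasi-likelihood test of edgeR, as were 73.3% of the 705 rows tested. Their median log2 fold change was 1.69. PCDHGB2 was the highest of them by the mean over all 6 libraries, although PCDHGA4 was higher in control (0.327 against 0.273 FPKM). PCDHGB2 read 0.45, 0.23 and 0.14 FPKM in control and 0.86, 0.71 and 0.82 FPKM in shTMPRSS4. The lowest were PCDHGB6, with 0.03, 0.07 and 0 FPKM in control and 0.34, 0.17 and 0.17 FPKM in shTMPRSS4, and PCDHGA7, with 0.01, 0.03 and 0 FPKM against 0.15, 0.21 and 0.24 FPKM. The sum over the 9 listed gamma genes was between 1.41 and 1.65 FPKM in control and between 4.56 and 5.10 FPKM in shTMPRSS4. That of the 12 listed beta genes, out of 16, was 13.53 to 14.69 and 34.22 to 40.57 FPKM. Genes outside the table are missing from both sums, so the clusters are not ranked by them. PCDHGA4 turned under TMM and DESeq2 size factors, and the other 8 did not.

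Of 15 alpha genes, PCDHAC2 was in the table and went the other way. It read 2.69, 1.73 and 2.71 FPKM in control and 1.18, 1.07 and 1.11 FPKM in shTMPRSS4, a log2 fold change of −1.06. PCDHAC2 is a C-type isoform, and such isoforms are known to be regulated apart from the alternate ones. No gene of a list of 30 neighbours on 5q31 was in the table. Outside that list, the table held IGIP and GNPDA1, which start at 140125935 and 141991749 on chromosome 5. In the authors' deposited table IGIP was higher (log2 fold change 1.16) and GNPDA1 lower (−1.73) in shTMPRSS4.

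Most genes that act with protocadherins were not analysed here. The calls that follow stand against 99.1% of rows called in either direction and 73.3% called higher. Of 22 genes for signalling partners of clustered protocadherins, PTK2B, a focal adhesion kinase, was listed and called lower. It read 16.92, 18.17 and 16.25 FPKM in control and 6.69, 7.30 and 7.12 FPKM in shTMPRSS4. Whether it binds the beta proteins was not tested. Of 28 regulators of the clusters, TET1, a DNA demethylation enzyme, was listed and called higher, with 0.0767 ± 0.00577 FPKM in control and 0.177 ± 0.0153 FPKM in shTMPRSS4 (SD, n = 3). Its log2 fold change of 1.19 was 0.0074 under TMM and 0.027 under DESeq2 size factors. Of 22 non-clustered protocadherins, CDHR5 (3.44 ± 0.325 to 7.71 ± 0.200 FPKM) and CDHR2 (0.0267 ± 0.0208 to 0.130 ± 0.0361 FPKM), which join microvilli in epithelia, were called higher, and CDHR5 turned under TMM and DESeq2 size factors. None of 23 classical cadherins and catenins was listed.

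In the annotation of the authors' deposited table, 28 rows carried the term for homophilic adhesion. They were the 9 genes, 13 other clustered protocadherins and 6 further genes, of which CEACAM6 and PECAM1 were lower and CDHR5, CDHR2, DSCAML1 and ROBO2 higher, CDHR5 turning under TMM and DESeq2 size factors. Of the 9 genes, 6 also carried the term for synapse assembly, out of 10 rows with it. PCDHB13 and PCDHB15 were the 2 rows annotated to the photoreceptor connecting cilium.

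Markers of other cell types are given beside the protocadherins because neurons express the family strongly. Of 15 ductal markers CEACAM6, an epithelial surface glycoprotein, was listed (summed level 11.52 to 13.25 FPKM in control, 3.71 to 3.94 FPKM in shTMPRSS4), so the label of a pancreatic cancer line could not be checked from this table. As given above, 99.1% of the rows tested were called in either direction and 73.3% were called higher, so nothing is read from the calls of single markers. Of 15 neuron markers, TUBB3 (neuronal tubulin) and MAP2 (a dendritic microtubule protein) were listed and called higher, and both turned under TMM and DESeq2 size factors. Their summed level was 39.25 to 42.34 FPKM in control and 86.75 to 91.27 FPKM in shTMPRSS4. Nearly all of it was TUBB3, with a shTMPRSS4 mean of 88.0 FPKM against 1.14 for MAP2. Of 14 neuroendocrine markers, NEUROG3 (an endocrine progenitor factor) and SCGN were called higher, and GCG had 0 counts in control and was not tested. Their sum was 0.35 to 0.48 FPKM in control and 11.95 to 13.23 FPKM in shTMPRSS4. In shTMPRSS4 this was mostly NEUROG3, with a mean of 11.6 FPKM against 0.80 for SCGN and 0.15 for GCG. Of 14 fibroblast and endothelial markers, VIM, ACTA2 and FAP were called higher and PECAM1 lower, with sums of 7.78 to 9.27 and 19.40 to 20.97 FPKM. None of 14 immune markers was listed. Their part in the protocadherin levels was not tested.

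The genes outside the clusters whose profile over the 6 libraries was most like the mean of the 9 were FXYD2, SEPT3, FSCN1, SOX4 and EPHB3. Likeness was the root mean square difference of log2(FPKM + 0.1) after centring, over 380 candidates of at least 1 FPKM. All candidates were selected on the same contrast, so a small difference reflects a similar fold change and a small spread. It does not show joint regulation. The log2 fold changes of these genes were between 1.35 (EPHB3) and 1.56 (SOX4). The values were 0.0497, 0.0593, 0.0678, 0.0800 and 0.0818, on the log2 scale. FXYD2, a regulator of the sodium pump, read 17.86, 17.53 and 16.05 FPKM in control and 44.54, 44.16 and 48.24 FPKM in shTMPRSS4. FSCN1, an actin-bundling protein, was the most abundant, with means of 87.6 ± 2.64 and 229 ± 2.98 FPKM (SD, n = 3). SEPT3 is a septin, SOX4 a transcription factor and EPHB3 an ephrin receptor. Against the same mean, the 9 genes themselves were between 0.159 for PCDHB13 and 0.470 for PCDHB2. The 5 genes were picked for the smallest difference, so the 2 ranges are not compared.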

How the data were processed

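Polyadenylated RNA of 3 control and 3 shTMPRSS4 samples of AsPC-1 cells was sequenced, per the labels. The authors deposited 1 table that gives, per the file headers, the read count (whole numbers) and FPKM of each gene in each library. Per the file headers, the authors' log2 fold change, p-value and false discovery rate follow. Bowtie 0.12.2 and 2 mouse builds, mm8 and mm9, are named in the submitters' processing notes, although all 753 identifiers matched human genes of GENCODE release 29; the reference used is uncertain. The counting tool is not given in the sources used here.

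Sums over selected rows are not library depths. Relative depth was therefore the median ratio of count to FPKM over 159 genes with at least 200 counts, and absolute depth came from 12 of these genes with 1 annotated transcript. With this depth, edgeR 4.0.16 under R 4.3.3 fitted the deposited counts by quasi-likelihood, using its filter on low counts and Benjamini-Hochberg adjustment over 705 rows with a threshold of 0.05. It was tested on simulated data. Because the rows were selected on the same contrast, its calls are descriptive. Fold changes are log2 ratios of depth-scaled counts plus 0.5, with the SE over 3 against 3 libraries. Alternatives were TMM, DESeq2 1.42.0 and upper-quartile scaling, no filter, a replicate block, leaving out each library, pseudocounts on FPKM, other thresholds and the longest transcript as the length.

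The members and lists were chosen with earlier results of these data known. Named genes were every listed PCDHB gene, at most 4 alpha and gamma genes (the highest and lowest by mean FPKM), and at most 3 genes per other list by lowest p. The 5 genes of most like profile were also named. PCDHGA4, the homophilic adhesion genes, PECAM1, IGIP and GNPDA1 were named after their values were seen.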

Additional observations from a re-analysis of the deposited data

How the results depend on the processing

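Every choice of scaling on the listed rows moved the fold changes, since it centres a table selected for change. The median over all rows tested shifted by −1.18 under TMM, −1.16 under DESeq2 size factors and −0.72 under upper-quartile scaling. The median over the 9 genes, 1.38, became 0.19, 0.21 and 0.66, and it was 0.90 on the log2(FPKM + 1) scale. PCDHB2 turned to −0.24 and −0.22 and PCDHB15 to −0.093 and −0.074 under TMM and DESeq2 size factors. Genes called were 699 (517 higher, 182 lower) with recovered depth, 359 (167 and 192) with TMM and 368 (177 and 191) with DESeq2 size factors. The calls with DESeq2's own test at recovered depth were 704. Leaving out 1 library at a time gave 698 to 708 calls, 513 to 526 of them higher. Leaving out any 1 library left all 9 genes higher at the recovered depth. This was fixed in advance, since the groups of all 9 genes were already separate. The rule found 4 genes when 1 FPKM was asked of all 6 libraries. The replicate block gave 682 calls, 507 of them higher, and a median of 1.38 over the 9 genes. Deviations of same-numbered samples correlated at −0.0723, −0.0594 and −0.0215 over 705 genes. Pairs with different numbers lay between −0.0284 and 0.0859. The deviations were taken after depth scaling, within small groups and over selected rows, so they cannot show whether same-numbered samples were paired. Low counts limit PCDHB11 and PCDHB12, with 95 and 86 control counts.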
